A study of Homo sapiens with 24 samples.

Results

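The 6 transcripts followed here encode the enzymes that set the phosphorylation of the translation initiation factor eIF2α: the kinases *EIF2AK1* (HRI), *EIF2AK2* (PKR), *EIF2AK3* (PERK) and *EIF2AK4* (GCN2), and the phosphatase subunits *PPP1R15A* (GADD34) and *PPP1R15B* (CReP). They were chosen by gene symbol, by a rule that uses no measured value but was set with earlier results of these data known, and they are 6 of 18915 genes in the count matrix. All 6 had enough reads to be tested, among 12685 genes tested in all. RNA came from HepG2 cells, an established human hepatoma line, kept for 10 h with vehicle (DMSO), ISRIB (50 nM), nelfinavir (20 µM) or bortezomib (50 nM), or with bortezomib (50 nM) plus either nelfinavir (20 µM) or ISRIB (50 nM). Each of the 6 conditions was sequenced as 4 biological replicates, which gave 24 libraries. Bortezomib inhibits the proteasome, ISRIB acts on eIF2B and blunts the effect of eIF2α phosphorylation, and nelfinavir is an HIV protease inhibitor that the study used as an inhibitor of CReP. HepG2 is a single tumour-derived line, and all 24 libraries come from one time point.

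Phosphorylated eIF2α blocks its own exchange factor, eIF2B, which lowers general translation and favours a few messages such as *ATF4*, a sequence of events known as the integrated stress response. HRI responds to haem deficiency and to stress in the cytosol and mitochondria, PKR to double-stranded RNA, PERK to unfolded proteins in the endoplasmic reticulum (ER), and GCN2 to uncharged tRNA. The phosphate is removed by protein phosphatase 1 (PP1) when a PPP1R15 subunit brings it to eIF2α. GADD34 is known as the inducible subunit and CReP as the constitutive one.

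Counts per library ran from 5154533 to 6943164. Levels are given as CPM, the normalised read count relative to the library total after scaling by the TMM (trimmed mean of M-values) factor that edgeR computes, and because reads of this 3′ method fall near the end of a transcript, CPM was not divided by gene length and levels are compared between conditions and not between genes. The TMM factors lay between 1.16 and 1.24 in the libraries without bortezomib and between 0.786 and 0.869 in those with it, and mitochondrially encoded transcripts took from 18% to 23.2% and from 24.9% to 40.2% of the counts, respectively. With library totals alone in place of these factors, the median change of all genes in bortezomib versus DMSO shifted by −0.50 on the log2 scale, and the calls went from 3498 higher and 3275 lower to 1490 higher and 6266 lower. The like shift was −0.51 for bortezomib with nelfinavir versus nelfinavir, where the calls went from 3639 higher and 3600 lower to 1584 higher and 6518 lower. It was −0.54 for bortezomib with ISRIB versus ISRIB, where they went from 3694 higher and 3243 lower to 1532 higher and 6397 lower. In bulk RNA, less RNA per cell and fewer cells cannot be told apart. All 8 hepatocyte markers examined were detected in every library, with *ALB* between 1560 and 3530 CPM. Their summed level was 11900 to 13300 CPM in DMSO, 8910 to 9400 with bortezomib and 5830 to 7350 with bortezomib and nelfinavir, and its part in the results below was not tested. Of 8 markers of immune, endothelial and fibroblast cells, 4 (*PTPRC*, *CD3E*, *PECAM1* and *VWF*) had no row under these names in the count matrix. The other 4 summed to 0.938 to 5.51 CPM per library. Most of this was *CD68*, at a median of 3.52 CPM, with *COL1A1*, *COL3A1* and *PDGFRB* at a median of 0 CPM.

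Of the 3 drugs given alone, bortezomib changed the most of the 6 transcripts. Relative to DMSO, 5 of 6 were called, 4 higher and 1 lower, while 53.4% of all genes were called. A call is a quasi-likelihood p of edgeR below 0.05 after Benjamini-Hochberg adjustment over all genes. The median log2 change of the 6 was 0.66 (0.00174 for all genes). With nelfinavir, 3 of 6 were called, 2 higher and 1 lower, against 19.2% of all genes, and the median log2 change of the 6 was 0.15 (0.00703 for all genes). With ISRIB, 0 of 6 were called and 0 of 6 had an unadjusted p under 0.05. edgeR called 0% of all genes in that comparison, although 703 had an unadjusted p under 0.05, and DESeq2 called 21 genes, of which 0 were among the 6.

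The co-treatments divided the group. Adding nelfinavir to bortezomib changed 4 of 6 transcripts, 3 higher and 1 lower, beside 28.9% of all genes, and their median log2 change was 0.27 (−0.0171 for all genes). Adding ISRIB to bortezomib changed 2 of 6, 1 in each direction, beside 12.2% of all genes, with a median log2 change of −0.02 (0.00651 for all genes). Set against the same partner drug alone, bortezomib changed 5 of 6 in the presence of nelfinavir (4 higher, 1 lower), where 57.1% of all genes were called, and 6 of 6 in the presence of ISRIB (5 higher, 1 lower), where 54.7% were. The last count was 3 of 6 with library totals alone. In the nelfinavir pair, library totals alone called *EIF2AK1* lower (log2 −0.49, edgeR adjusted p = 8.24e-07) and lost the call of *PPP1R15B* (0.25, 0.178). The 2 co-treatments differed from each other in 2 of 6, against 24.4% of all genes. These comparisons share the bortezomib or DMSO libraries, so their counts are not independent of each other.

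**Figure D1:**
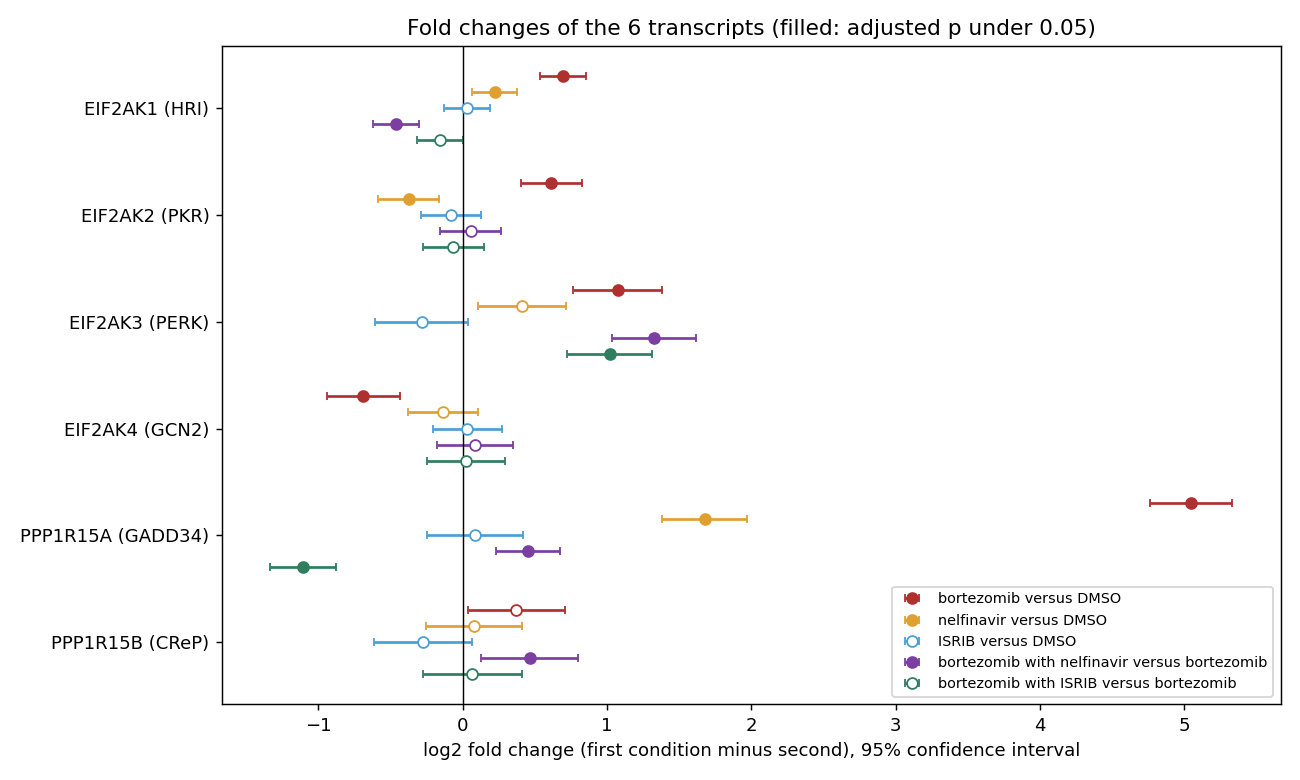
Log2 fold changes of the 6 transcripts in 5 comparisons, with 95% confidence intervals as bars and filled points where the adjusted p was under 0.05. *PPP1R15A* stands apart at 5.05 with bortezomib, *EIF2AK3* has positive values of 1.33 and 1.02 for both co-treatments, and *EIF2AK4* is the one transcript at a negative value (−0.69) with bortezomib, although *PPP1R15B* would also be negative (−0.13, not called) with library totals alone.

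*PPP1R15A* moved the most. GADD34, its product, recruits PP1 to eIF2α during stress and so closes a negative feedback loop. The gene (ENSG00000087074) lies at chromosome 19, 49375469 to 49379316, on the plus strand of GRCh37 and has 3 exons. Its level in the 4 DMSO libraries was 7.09, 6.25, 9.10 and 7.48 CPM, which are counts of only 48 to 65 reads. With bortezomib the libraries held 269.5, 239.5, 249 and 231 CPM, so the groups lay far apart with no overlap. The mean went from 7.48 ± 1.20 (SD, n = 4) to 247 ± 16.7 CPM (SD, n = 4). That is 33.1-fold, or 5.05 on the log2 scale (SE 0.141), with an edgeR adjusted p of 1.65e-24. By p it ranked 4th and by fold change 33rd of 12685 genes in that comparison. With library totals alone the log2 fold change was 4.55.

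Nelfinavir alone raised *PPP1R15A* to 30.6, 17.8, 20.8 and 26.2 CPM. Each of these libraries was above every DMSO library, and the log2 fold change was 1.68 (SE 0.144, edgeR adjusted p = 5.65e-11). ISRIB alone left the transcript at 9.33, 6.30, 7.91 and 8.01 CPM, inside and around the DMSO range, with a 95% confidence interval of the log2 fold change from −0.25 to 0.42.

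On top of bortezomib the drugs moved *PPP1R15A* in opposite directions. The libraries with nelfinavir added held 334, 359.9, 342 and 318 CPM, all above the bortezomib libraries (log2 fold change 0.45, SE 0.109, edgeR adjusted p = 0.00184). Those with ISRIB added held 116, 119.8, 101 and 123 CPM, all below them, and the transcript fell by 1.104 on the log2 scale (SE 0.112, edgeR adjusted p = 1.05e-08), the 30th smallest p of 12685 genes. Against ISRIB alone, the libraries with bortezomib and ISRIB were still 14.5-fold higher (log2 3.86, edgeR adjusted p = 2.42e-21). Between the co-treatments the transcript differed by 1.56 on the log2 scale (SE 0.113, edgeR adjusted p = 2.50e-12), higher with nelfinavir.

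The 6 conditions therefore had an almost complete order for *PPP1R15A*. DMSO and ISRIB were lowest and did not differ beyond their spread, followed by nelfinavir, bortezomib with ISRIB, bortezomib, and bortezomib with nelfinavir. Each of the other 4 steps was called. Nelfinavir was above ISRIB by 1.59 (17.4% of all genes called between them), and bortezomib with ISRIB was above nelfinavir by 2.27 (50.0% of all genes called), both log2.

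The response to a drug was then compared with and without bortezomib in one model. This interaction, the change on adding the drug to bortezomib minus the change on adding it to DMSO, was called for 4 of 6 transcripts with nelfinavir (2 positive, 2 negative), where 19.7% of all genes were called. It was called for 2 of 6 with ISRIB, where 4.82% were. For *PPP1R15A* the nelfinavir interaction was −1.22 (SE 0.181, edgeR adjusted p = 6.33e-06) and the ISRIB interaction −1.19 (SE 0.198, edgeR adjusted p = 0.000185). These are differences of log ratios: in CPM, nelfinavir added 16.4 to the DMSO level and 91.3 to the bortezomib level, while ISRIB changed the DMSO level by 0.41 and the bortezomib level by −132.

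**Figure D2:**
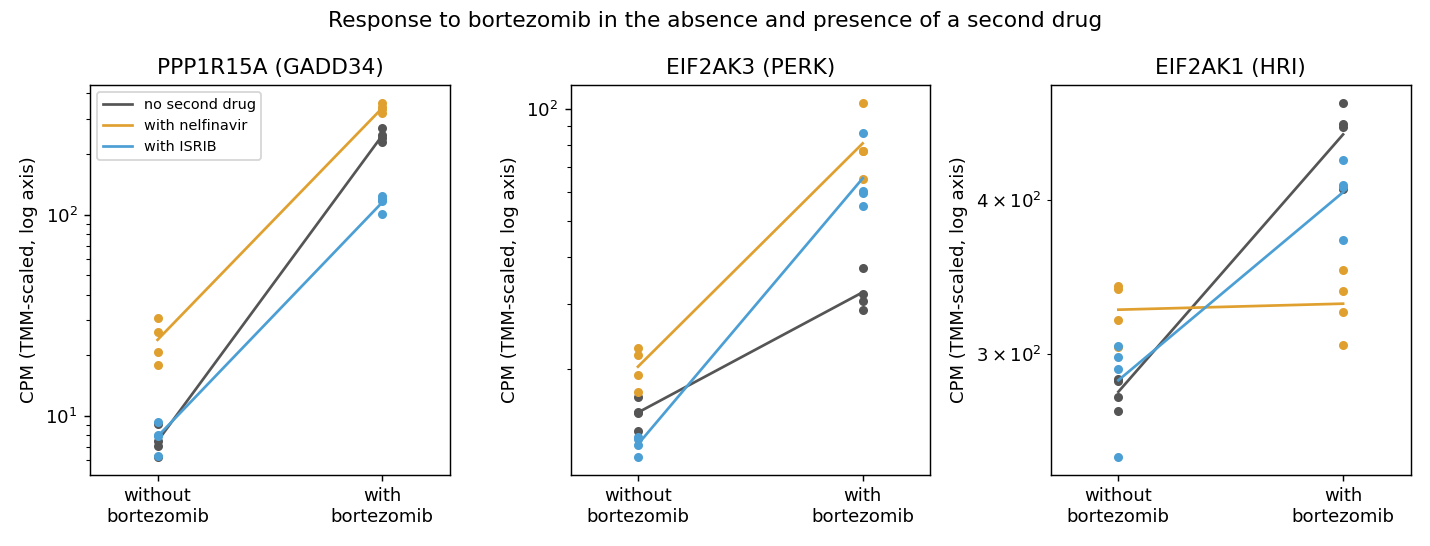
CPM (log axis) of *PPP1R15A*, *EIF2AK3* and *EIF2AK1* without and with bortezomib, with no second drug, nelfinavir or ISRIB; points are libraries and lines join the group means. The *PPP1R15A* lines with either second drug are less steep than the line without one, both are steeper for *EIF2AK3*, and the *EIF2AK1* line with nelfinavir is nearly flat (325.8 to 329.5 CPM), which with library totals alone would be a fall (log2 −0.49).

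The start-site regions of these genes were searched for 5 short motifs, since several members rose together. RefSeq promoter sequences (GRCh38.p14, 250 bases before and 50 after the start) were held for 5 of the 6 genes, *EIF2AK1* being the exception. The motifs were the C/EBP-ATF composite core TGATGNAA, the palindromic cAMP response element TGACGTCA, paired heat shock units GAANNTTC, the interferon response element core GAAANNGAA and the antioxidant response element core TGACNNNGC, each on both strands. The 3 promoters with a match are shown in part, 5′ to 3′ on the strand of the gene, with the matches in capitals. For *PPP1R15A* and *PPP1R15B* the 250 bases before the start are printed. For *EIF2AK2* 130 bases before the start and 20 after it are printed. The first is at chr19:48872171-48872420 on the plus strand, the second at chr1:204411818-204412067 on the minus strand and the third at chr2:37156961-37157110 on the minus strand, all in GRCh38.p14.

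PPP1R15A: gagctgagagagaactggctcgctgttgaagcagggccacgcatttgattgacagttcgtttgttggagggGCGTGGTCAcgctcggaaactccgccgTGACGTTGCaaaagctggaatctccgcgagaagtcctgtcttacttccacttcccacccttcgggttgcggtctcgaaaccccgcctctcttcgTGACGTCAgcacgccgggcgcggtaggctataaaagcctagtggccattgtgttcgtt

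PPP1R15B: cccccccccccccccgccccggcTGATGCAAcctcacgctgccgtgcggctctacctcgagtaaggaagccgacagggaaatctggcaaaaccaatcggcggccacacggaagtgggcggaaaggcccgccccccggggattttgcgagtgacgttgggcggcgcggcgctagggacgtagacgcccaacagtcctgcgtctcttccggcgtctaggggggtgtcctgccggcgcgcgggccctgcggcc

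EIF2AK2: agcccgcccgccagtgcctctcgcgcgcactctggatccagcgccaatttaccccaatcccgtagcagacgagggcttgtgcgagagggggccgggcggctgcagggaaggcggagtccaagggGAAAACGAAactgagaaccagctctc

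The *PPP1R15A* promoter held TGACGTCA at −58 (its first base, counted from the start site) and TGACNNNGC at −152 on the forward and −179 on the reverse strand. TGACGTCA occurs in 1.98% and TGACNNNGC in 13.56% of 27305 promoter windows of this length. TGATGNAA, which is in 3.67% of the windows, was found once, at −227 in *PPP1R15B*. GAAANNGAA, in 8.29% of the windows, was found in *EIF2AK2*, at −6. GAANNTTC (6.87% of windows) was in none of the 5 windows, and none of the 5 motifs was in that of *EIF2AK3* or *EIF2AK4*. A match describes letters in a window and is no evidence of binding.

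*PPP1R15B* changed far less. CReP, its product, keeps eIF2α dephosphorylated in unstressed cells. The gene (ENSG00000158615) has 2 exons and lies at chromosome 1, 204365620 to 204381015, on the minus strand of GRCh37. The DMSO libraries held 31.3, 27.2, 24.2 and 25.25 CPM and the bortezomib libraries 35.3, 36.1, 32.5 and 36.1 CPM. The bortezomib libraries were all above those of DMSO, but the log2 fold change of 0.37 (SE 0.166) had an edgeR adjusted p of 0.0574 and was not called. Without DMSO replicate 1 it was 0.45 (adjusted p = 0.0384), with edgeR's default filter 0.38 (adjusted p = 0.0484), with only these 2 groups in the model 0.34 (adjusted p = 0.0163), and −0.13 (adjusted p = 0.522) when scaled by library totals alone. Neither nelfinavir (29.5, 31.9, 22.1 and 30.6 CPM) nor ISRIB alone (25.6, 23.6, 15.7 and 24.3 CPM) gave a call, with 95% confidence intervals of −0.25 to 0.41 and −0.61 to 0.06 on the log2 scale.

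The highest *PPP1R15B* levels were in bortezomib with nelfinavir, at 54.95, 55.4, 44.6 and 38.85 CPM. All 4 libraries were above those with bortezomib alone, by 0.47 on the log2 scale (SE 0.165, edgeR adjusted p = 0.0322). This call was lost with upper-quartile factors (0.42, adjusted p = 0.0528), without bortezomib with nelfinavir replicate 1 (0.44, adjusted p = 0.0548) or replicate 2 (0.44, adjusted p = 0.0552), and without bortezomib replicate 3 (0.47, adjusted p = 0.0540). Bortezomib with ISRIB scattered widely, at 38.7, 38.95, 23.4 and 46.2 CPM, and spanned the bortezomib range (log2 difference 0.07, 95% confidence interval −0.27 to 0.41). The co-treatments differed by 0.40 (edgeR adjusted p = 0.0779, not called), or by 0.56 (adjusted p = 0.0175) without bortezomib with ISRIB replicate 4 and 0.53 (adjusted p = 0.0236) without bortezomib with nelfinavir replicate 4, and by 0.44 (adjusted p = 0.0208) with no filter. Against the partner drug alone *PPP1R15B* was higher by 0.76 in the nelfinavir pair (edgeR adjusted p = 0.000175) and, with an overlap of the groups, by 0.72 in the ISRIB pair (edgeR adjusted p = 0.000546), but scaling by library totals alone gave 0.25 (adjusted p = 0.178) and 0.17 (adjusted p = 0.395). In the order of its 6 means (ISRIB, DMSO, nelfinavir, bortezomib, bortezomib with ISRIB, bortezomib with nelfinavir) no neighbouring pair was called, and the step from nelfinavir to bortezomib was −0.18 with library totals alone. Here 48.7% of all genes were called between nelfinavir and bortezomib.

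The balance of the phosphatase subunits can be read within a library, where the scaling cancels. The ratio of *PPP1R15A* to *PPP1R15B* counts was 0.282 ± 0.0702 in DMSO, 0.366 ± 0.101 in ISRIB and 0.848 ± 0.207 in nelfinavir (SD, n = 4 each). Bortezomib alone gave 7.08 ± 0.663, its combination with nelfinavir 7.11 ± 0.989 and that with ISRIB 3.26 ± 0.722. Libraries with bortezomib alone ranged from 6.39 to 7.66 and those with nelfinavir added from 6.07 to 8.19, so these conditions overlapped, whereas the highest value with ISRIB added was 4.32. The counts are not per length, so the ratio is compared between conditions and does not say which transcript was the more abundant.

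**Figure D3:**
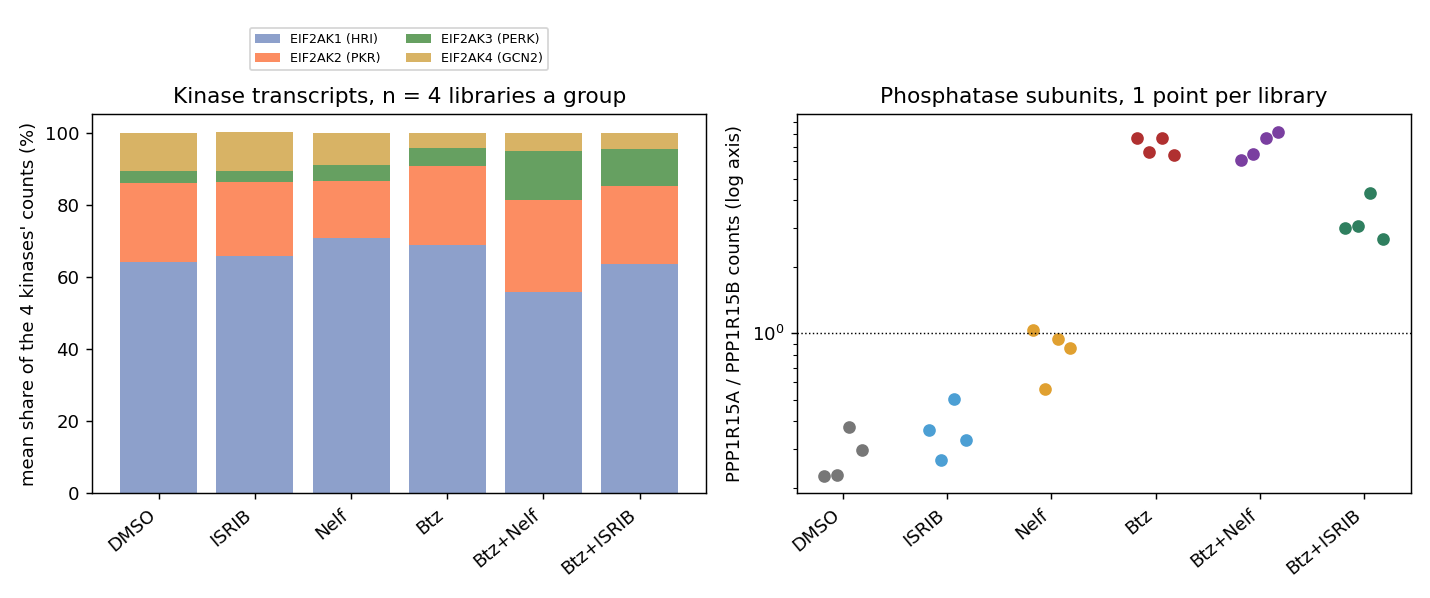
Left, mean share of each kinase transcript in the counts of the 4 kinases, per condition (n = 4). Right, ratio of *PPP1R15A* to *PPP1R15B* counts on a log axis, with a point per library and a dotted line at a ratio of 1. The ratio is 6.39 to 7.66 with bortezomib and 0.227 to 0.376 in DMSO, and the *EIF2AK3* share is 13.6% and 10.2% in the co-treatments against 4.9% with bortezomib.

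*EIF2AK3* had the largest log2 changes of the kinases in both co-treatments relative to bortezomib. PERK is the kinase that sits in the ER membrane and is held inactive by the chaperone BiP, encoded by *HSPA5*. The gene (ENSG00000172071) has 17 exons and lies at chromosome 2, 88856259 to 88991036, on the minus strand of GRCh37. DMSO libraries held 16.85, 15.4, 15.3 and 13.6 CPM and bortezomib libraries 28.9, 37.4, 31.9 and 30.5 CPM. There was no overlap, and the log2 fold change was 1.08 (SE 0.151, edgeR adjusted p = 3.25e-07), or 0.58 (adjusted p = 0.00189) with library totals alone. Nelfinavir alone gave 21.9, 22.7, 17.4 and 19.2 CPM, all above DMSO, with a log2 fold change of 0.41 (SE 0.151) that was not called (edgeR adjusted p = 0.0523). It was called with the default filter (adjusted p = 0.0475), with only these 2 groups in the model (adjusted p = 0.0156) and without nelfinavir replicate 3 (0.48, adjusted p = 0.0387). ISRIB alone gave the lowest levels, 11.6, 13.1, 12.99 and 12.45 CPM, all below DMSO, with a log2 difference of −0.28 that was not called (edgeR adjusted p = 0.961).

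Both co-treatments raised *EIF2AK3* above bortezomib alone. With nelfinavir the libraries held 104, 77.4, 64.8 and 77.3 CPM, which is 2.51-fold higher than bortezomib (log2 1.33, SE 0.143, edgeR adjusted p = 1.26e-08). With ISRIB they held 59.4, 86.1, 60.4 and 54.8 CPM, 2.03-fold higher (log2 1.02, SE 0.144, edgeR adjusted p = 5.30e-06). By p it ranked 99th of 12685 genes in both comparisons. ISRIB thus moved *EIF2AK3* and *PPP1R15A* in opposite directions in the same libraries. Between the co-treatments *EIF2AK3* was not called (0.31, SE 0.137, edgeR adjusted p = 0.0977), although it was without bortezomib with ISRIB replicate 2, the highest library of its group (0.51, adjusted p = 0.00606), and without bortezomib with nelfinavir replicate 3 (0.43, adjusted p = 0.0260).

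The interaction was positive for *EIF2AK3* with both drugs, 0.92 (SE 0.207, edgeR adjusted p = 0.00159) with nelfinavir and 1.304 (SE 0.212, edgeR adjusted p = 0.000149) with ISRIB. In CPM, nelfinavir added 5.03 to the DMSO level and 48.8 to the bortezomib level, and ISRIB changed them by −2.73 and 33. Relative to the partner drug alone, bortezomib raised the transcript 3.98-fold with nelfinavir and 5.20-fold with ISRIB (log2 1.99 and 2.38, edgeR adjusted p = 1.41e-13 and 5.34e-15). The order of the means was ISRIB, DMSO, nelfinavir, bortezomib, bortezomib with ISRIB and bortezomib with nelfinavir. The called steps were nelfinavir to bortezomib (0.66, edgeR adjusted p = 0.000354) and bortezomib to bortezomib with ISRIB, and the first was not called with library totals alone (0.19, adjusted p = 0.293).

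**Figure D4:**
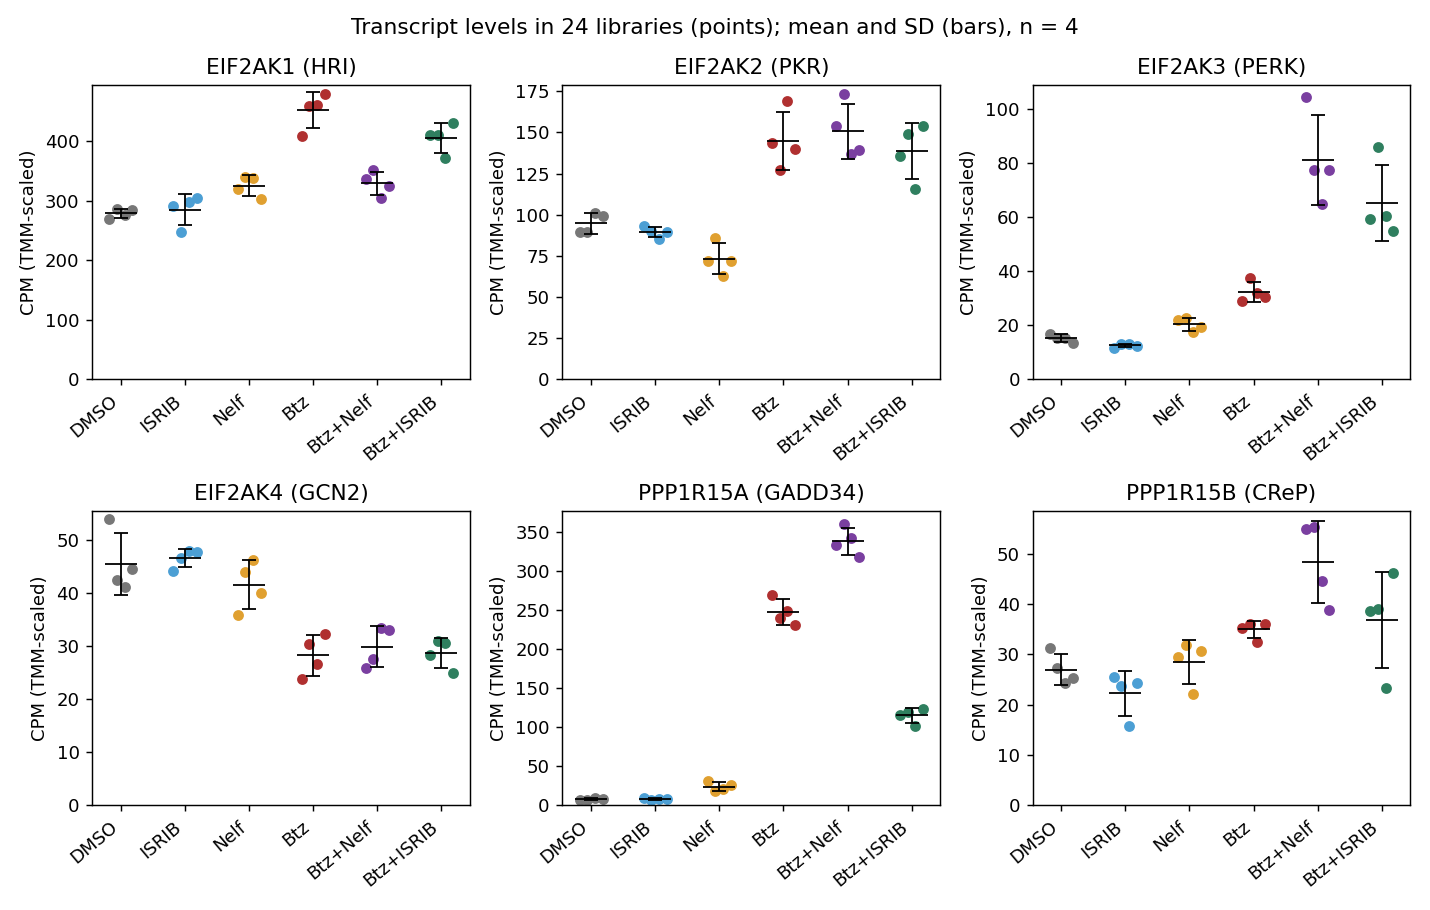
TMM-scaled CPM of the 6 transcripts in all 24 libraries (points) by condition, with the mean and SD as bars (n = 4); each panel has its own axis from 0. *EIF2AK3* is highest in the co-treatments (80.95 and 65.18 CPM), *EIF2AK1* in bortezomib alone (452.6 CPM), and the *EIF2AK4* libraries with bortezomib lie below those without it.

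*EIF2AK1* behaved in another way. HRI, its product, is the kinase that relays haem shortage and mitochondrial stress. The gene (ENSG00000086232) has 15 exons and lies at chromosome 7, 6061878 to 6098806, on the minus strand of GRCh37. *AIMP2* lies on the opposite strand, and its span, introns included, overlaps 1588 bases of the last exon of *EIF2AK1*. How much of this overlap is *AIMP2* exon was not measured. No source used here states the strand setting of the counting. Whether reads of the pair were told apart is therefore not known, and the values of *EIF2AK1* are uncertain to that extent. *AIMP2* itself averaged 112 CPM in DMSO, 105 with bortezomib, 85.3 with nelfinavir added and 64.3 with ISRIB added, and its log2 change from DMSO to bortezomib was −0.10 (edgeR adjusted p = 0.410).

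*EIF2AK1* stood at 269.5, 286, 277 and 285 CPM in DMSO and at 409, 459, 462 and 480.4 CPM with bortezomib. The groups did not overlap, with a log2 fold change of 0.70 (SE 0.0781, edgeR adjusted p = 3.84e-09), which was 0.20 (adjusted p = 0.0225) with library totals alone. Nelfinavir alone gave 319.7, 341, 339 and 304 CPM, a small increase of 0.22 (SE 0.0777, edgeR adjusted p = 0.0408). That call was lost with median-of-ratios (RLE) factors (adjusted p = 0.0532), upper-quartile factors (0.0750), library totals alone (0.0630) and no filter (0.161). It was also lost without any one of the 4 DMSO libraries or of nelfinavir replicates 1, 2 and 3, where the log2 fold change ran from 0.20 to 0.23 and the adjusted p from 0.0595 to 0.112. ISRIB alone gave 292, 247, 298 and 304.5 CPM, around the DMSO range (log2 difference 0.03, 95% confidence interval −0.13 to 0.19).

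With nelfinavir added to bortezomib, *EIF2AK1* was at 337.5, 351, 305 and 324 CPM, below every library with bortezomib alone. It fell by 0.46 on the log2 scale (SE 0.0782, edgeR adjusted p = 3.30e-05) while *PPP1R15A*, *PPP1R15B* and *EIF2AK3* rose in the same comparison. *AIMP2* fell by 0.30 there (edgeR adjusted p = 0.0178), and its part was not tested. With ISRIB added, the libraries held 412, 410.2, 372 and 431 CPM and overlapped those with bortezomib alone (−0.16, SE 0.0780, edgeR adjusted p = 0.198, but −0.22 and 0.0476 with library totals alone). *AIMP2* fell by 0.71 there (edgeR adjusted p = 3.94e-06). The co-treatments differed by −0.30 (edgeR adjusted p = 0.00435), lower with nelfinavir, a call that was lost with no filter (−0.25, adjusted p = 0.0517).

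The nelfinavir interaction for *EIF2AK1* was −0.68 (SE 0.110, edgeR adjusted p = 2.59e-05), and the ISRIB interaction was −0.19 and was not called (edgeR adjusted p = 0.382). The interactions of the overlapping *AIMP2* had the same sign, −0.52 with nelfinavir (edgeR adjusted p = 0.00470) and −0.81 with ISRIB (0.000164). In the presence of nelfinavir, bortezomib changed *EIF2AK1* by 0.02 (95% confidence interval −0.14 to 0.17), and in the presence of ISRIB by 0.51 (edgeR adjusted p = 1.45e-06). Both depended on the scaling, since with library totals alone they were −0.49 (adjusted p = 8.24e-07) and −0.03 (adjusted p = 0.721). In the order DMSO, ISRIB, nelfinavir, bortezomib with nelfinavir, bortezomib with ISRIB and bortezomib, the one called step was that between the co-treatments.

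*EIF2AK2* encodes PKR, the double-stranded RNA sensor of the antiviral response, which interferon induces. The gene (ENSG00000055332) has 17 exons and lies at chromosome 2, 37326353 to 37384665, on the minus strand of GRCh37. On the other strand, *GPATCH11* covers 35 bases of its 3′ end. As for *EIF2AK1*, whether reads of the pair were told apart is not known. *GPATCH11* averaged 33.6 CPM in DMSO, 13.4 CPM with bortezomib and 21.4 CPM with nelfinavir alone. Its log2 changes from DMSO were −1.32 with bortezomib (edgeR adjusted p = 5.47e-08) and −0.65 with nelfinavir (0.00234), and its part was not tested. *EIF2AK2* itself stood at 89.5, 89.3, 101 and 99.3 CPM in the DMSO libraries and at 143.5, 127, 169 and 140 CPM in the bortezomib libraries. The groups were apart, with a log2 fold change of 0.61 (SE 0.103, edgeR adjusted p = 6.87e-06). The call was lost with library totals alone, which gave 0.12 (adjusted p = 0.334). Nelfinavir alone lowered the transcript to 72.0, 85.6, 62.8 and 72.2 CPM, all below DMSO. It fell by 0.37 on the log2 scale (SE 0.104, edgeR adjusted p = 0.00917), or by 0.31 without nelfinavir replicate 3, the lowest library, where the call was lost (adjusted p = 0.0569).

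The change with nelfinavir differed on top of bortezomib. There the libraries held 154, 173, 137 and 139 CPM with nelfinavir and 136, 149, 116 and 154 CPM with ISRIB, and both sets overlapped those with bortezomib alone (log2 differences of 0.06, 95% confidence interval −0.15 to 0.27, and −0.06, −0.28 to 0.15). The nelfinavir interaction was 0.43 (SE 0.146, edgeR adjusted p = 0.0360). It was not called without DMSO replicate 3 (0.40, adjusted p = 0.0740) or 4 (0.41, 0.0690), or without nelfinavir replicate 1 (0.42, 0.0573), 3 (0.36, 0.0932) or 4 (0.42, 0.0602). The nelfinavir interaction of the overlapping *GPATCH11* was 1.52 (edgeR adjusted p = 1.185e-05). On adding nelfinavir to bortezomib *GPATCH11* rose by 0.87 (edgeR adjusted p = 0.000293), and its part was not tested. ISRIB alone left *EIF2AK2* at 92.95, 90.4, 85.4 and 89.4 CPM (log2 difference −0.08, 95% confidence interval −0.29 to 0.13).

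Against the partner drug alone, *EIF2AK2* was higher with bortezomib by 1.04 in the nelfinavir pair (edgeR adjusted p = 3.18e-10) and by 0.63 in the ISRIB pair (edgeR adjusted p = 4.74e-06), which with library totals alone were 0.53 (adjusted p = 3.54e-05) and 0.08 (adjusted p = 0.486). Its means ran in the order nelfinavir, ISRIB, DMSO, bortezomib with ISRIB, bortezomib and bortezomib with nelfinavir. The first called step was nelfinavir to ISRIB (0.29, edgeR adjusted p = 0.0486), although the libraries of these groups overlapped. The second was DMSO to bortezomib with ISRIB (0.55, edgeR adjusted p = 3.63e-05, in a pair with 54.3% of all genes called). This second step was −0.02 with library totals alone (adjusted p = 0.905).

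*EIF2AK4* was the one member called lower with bortezomib. GCN2, its product, senses amino acid shortage. The gene (ENSG00000128829) has 39 exons and lies at chromosome 15, 40226316 to 40327792, on the plus strand of GRCh37. DMSO libraries held 54.0, 42.4, 41.15 and 44.5 CPM and bortezomib libraries 23.7, 30.45, 26.6 and 32.2 CPM, with no overlap. It fell by 0.69 on the log2 scale (SE 0.125, edgeR adjusted p = 2.02e-05), and the change was −1.19 when scaled by library totals. It also fell relative to the partner drug, by 0.47 in the nelfinavir pair (edgeR adjusted p = 0.00172) and by 0.70 in the ISRIB pair (edgeR adjusted p = 1.71e-05), and library totals gave −0.98 and −1.24 for these pairs.

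The partner drugs themselves gave no call for *EIF2AK4*. Nelfinavir libraries held 35.8, 44.01, 46.3 and 39.99 CPM (log2 difference from DMSO −0.13, 95% confidence interval −0.38 to 0.11) and ISRIB libraries 44.1, 46.6, 47.9 and 47.8 CPM (0.03, −0.21 to 0.27). On top of bortezomib the libraries held 25.8, 27.5, 33.4 and 33.0 CPM with nelfinavir and 28.3, 31.0, 30.5 and 24.9 CPM with ISRIB. The differences from bortezomib alone were 0.09 (95% confidence interval −0.18 to 0.35) and 0.02 (−0.24 to 0.29), and neither interaction was called (0.22 and −0.01, edgeR adjusted p = 0.417 and 0.988). Of the 5 steps in the order bortezomib, bortezomib with ISRIB, bortezomib with nelfinavir, nelfinavir, DMSO and ISRIB, the one from bortezomib with nelfinavir to nelfinavir was called, and it separates the conditions with and without bortezomib.

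Within a library, the makeup of the kinase transcripts shifted with treatment. *EIF2AK3* took 3.51% ± 0.345 of the counts of the 4 kinases in DMSO, 4.9% ± 0.567 with bortezomib, 13.6% ± 2.18 with nelfinavir added and 10.2% ± 1.91 with ISRIB added (SD, n = 4). *EIF2AK4* went from 10.5% ± 1.42 in DMSO to 4.29% ± 0.459 with bortezomib, and *EIF2AK1* from 68.8% ± 1.74 with bortezomib to 55.8% ± 1.01 with nelfinavir added. The summed level of the 4 kinases was 435 ± 5.31 CPM in DMSO, 434 ± 25.2 in ISRIB and 461 ± 24.8 in nelfinavir. Bortezomib gave 658 ± 38.5, and 591 ± 42 was measured with nelfinavir added and 639 ± 43.8 with ISRIB added. The order depended on the scaling: with library totals alone, the sum was 525 ± 9.4 in DMSO, 562 ± 26 with bortezomib, 493 ± 33.4 with nelfinavir added, below DMSO, and 522 ± 22.8 with ISRIB added.

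The substrate complex and its exchange factor were examined as a list of 8 subunits of eIF2 and eIF2B. With ISRIB alone, 0 of 8 were called, as was 0 in each of the other lists below, because edgeR called 0% of all genes there. With bortezomib 5 were higher and 1 lower than in DMSO, with a median log2 change of 0.37 beside 0.00174 for all genes. Of all genes, 53.4% were called in that comparison. With library totals alone 1 was higher and 3 lower, so the direction of this list depended on the scaling. *EIF2S2* (the β subunit of eIF2) was higher by 0.86 (edgeR adjusted p = 9.30e-11), *EIF2S3* (γ) by 0.54 (2.22e-05) and *EIF2S1* (the phosphorylated α subunit) by 0.39 (0.00384), while *EIF2B1* was lower by 0.75 (log2 −0.75, 0.00158). With nelfinavir 2 were higher and 1 lower (median 0.18, all genes 0.00703), beside 19.2% of all genes called. *EIF2S2* changed by 0.96 (edgeR adjusted p = 4.20e-11), *EIF2S3* by 0.37 (0.00494) and *EIF2S1* by −0.31 (0.0490). With library totals alone 2 were higher and 0 lower, so the call of *EIF2S1* was lost. On top of bortezomib, *EIF2S2* was the 1 of 8 called, higher by 0.23 with nelfinavir (edgeR adjusted p = 0.0293, not called with library totals alone) and at −0.46 with ISRIB (0.000160). The shares of all genes called there were 28.9% and 12.2%.

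The list of 11 kinase regulators held the chaperones and partner proteins that restrain or activate the kinases. With bortezomib 5 of 11 were higher and 1 lower (median 0.29, all genes 0.00174), a share near the 53.4% of all genes called. With library totals alone 2 were higher and 5 lower. The cytosolic chaperones *HSP90AA1* and *HSP90AB1*, which HRI needs for folding, were higher by 1.89 and 1.38 (edgeR adjusted p = 4.82e-19 and 8.19e-13). *DNAJC3* (p58IPK), an inhibitor of PKR and PERK, was higher by 0.53 (edgeR adjusted p = 1.19e-05), and *OMA1*, the mitochondrial protease upstream of HRI, was at −1.35 (0.000821). With nelfinavir alone *DELE1*, which carries the mitochondrial signal to HRI, was 0.72 higher (edgeR adjusted p = 0.000470), *HSP90AA1* was at −0.31 (0.00503), and no other member was called (median 0.11, all genes 0.00703). Of all genes, 19.2% were called there.

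With nelfinavir added to bortezomib 6 regulators were higher and 1 lower (median 0.49, all genes −0.0171), beside 28.9% of all genes called. *HSPA5*, the ER chaperone that restrains PERK, went from 2134 ± 161 to 13420 ± 2427 CPM (SD, n = 4), which was 2.65 higher on the log2 scale (edgeR adjusted p = 3.15e-19). *DNAJC3* was higher by 1.17 (edgeR adjusted p = 1.76e-11), *HSP90AA1* by 0.59 (1.28e-06), and *IMPACT*, an inhibitor of GCN2 activation, was at −0.75 (0.0401). With ISRIB added, 2 were higher, *HSPA5* by 2.23 (edgeR adjusted p = 4.13e-17) and *DNAJC3* by 1.02 (1.25e-09), and *HSP90AA1* was at −0.25 (0.0421), with a list median of −0.05 beside 0.00651 for all genes. In that comparison 12.2% of all genes were called. The interaction was called and positive for 4 of 11 with nelfinavir and for 2 of 11 with ISRIB, where 19.7% and 4.82% of all genes were called. *HSPA5* led both (2.54 and 2.27, edgeR adjusted p = 2.64e-15 and 3.29e-13).

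Of the 3 catalytic subunits of PP1, the partners of GADD34 and CReP, *PPP1CA* was the 1 called with bortezomib, at −0.45 (edgeR adjusted p = 0.00200, list median −0.19), and 2 were lower with library totals alone. It went from 77.7 ± 5.62 to 56.9 ± 8.55 CPM (SD, n = 4). *PPP1CC* was the 1 called on adding nelfinavir to bortezomib, 0.45 higher (edgeR adjusted p = 0.000250, list median 0.23). On adding ISRIB to bortezomib 0 of 3 were called and with nelfinavir alone 0 of 3, with list medians of 0.10 and 0.17. Of all genes, 53.4% were called with bortezomib, 28.9% on adding nelfinavir to it, 12.2% on adding ISRIB and 19.2% with nelfinavir alone.

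Of the 8 transcription factors and regulators of the integrated stress response, 7 were higher with bortezomib and 7 with nelfinavir, with medians of 1.89 and 2.42, and 6 were higher and 1 lower with bortezomib under library totals alone. Of all genes, 53.4% and 19.2% were called with these drugs, and 28.9% and 12.2% on adding nelfinavir or ISRIB to bortezomib. *ATF3* led with bortezomib (5.39, edgeR adjusted p = 7.44e-23), and with nelfinavir *TRIB3*, *DDIT3* (CHOP) and *NUPR1* were higher by 2.33, 2.55 and 3.29 (edgeR adjusted p = 9.96e-18, 8.72e-17 and 1.26e-16). CHOP is known to activate *PPP1R15A*. Adding nelfinavir to bortezomib raised 5 of 8, among them *DDIT3* by 0.99 (edgeR adjusted p = 6.56e-08), *TRIB3* by 0.77 (5.06e-07) and *ATF4* by 0.84 (1.15e-06), with a median of 0.62. Adding ISRIB lowered 4 of 8 and raised 0, with a median of −0.39: *ATF3* was at −0.95 (edgeR adjusted p = 1.86e-06), *TRIB3* at −0.47 (0.00177) and *NUPR1* at −0.85 (0.00261). The nelfinavir interaction was called and negative for 7 of 8 (median −1.56, all genes −0.0247), and the ISRIB interaction for 1 of 8, *TRIB3* (−0.49, edgeR adjusted p = 0.0486). These interactions were called for 19.7% and 4.82% of all genes. The ISRIB interaction of *DDIT3* was −0.06 (edgeR adjusted p = 0.911), that of *PPP1R15A* −1.19. These are each gene's own values, and the difference between genes was not tested.

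*EIF2AK2* is itself an interferon-stimulated gene, and 11 of 14 others on a list of such genes were abundant enough to test. With bortezomib 1 of 11 was higher and 5 lower (median −0.27, all genes 0.00174), a share near the 53.4% of all genes called. With library totals alone 1 was higher and 8 lower. *IRF9*, a transcription factor of the interferon response, was higher by 1.61 at a low level of 1.23 ± 0.264 to 3.80 ± 0.605 CPM (SD, n = 4; edgeR adjusted p = 0.00230). *OAS3* and *ISG15* were at −0.66 and −1.28 (edgeR adjusted p = 0.000208 and 0.000406). With nelfinavir alone, where *EIF2AK2* fell, 1 of 11 was lower, *OAS3* (−0.64, edgeR adjusted p = 0.000672), with a median of −0.25, and 3 of 11 were lower with library totals alone. On top of bortezomib, 1 of 11 was lower with nelfinavir, *IFIH1* (−1.22, edgeR adjusted p = 0.000271), and 1 of 11 was higher with ISRIB, *STAT2* (0.71, 0.0108). Of all genes, 19.2% were called with nelfinavir alone, and 28.9% and 12.2% with nelfinavir and ISRIB on top of bortezomib.

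Across the 24 libraries, the genes whose log2 CPM followed each member most closely were as follows, as a description over libraries that share the treatments and the scaling. *PPP1R15A* was followed by *SMOX* and *TNFRSF10B* (Pearson's r = 0.989 each) and *ADAM17* (0.988). *EIF2AK3* was followed by *VIMP*, an ER protein of the degradation pathway (0.976), *PNPLA8* and *FOXK1* (0.974 each). *EIF2AK2* went with *PSMD12*, a proteasome subunit (0.955), the chaperonin subunit *CCT5* (0.950) and the co-chaperone *BAG3* (0.946), and *EIF2AK1* with *RBP4* (0.961) and *CNPPD1* (0.931). *EIF2AK4* went with *ATP5I* (0.943), *DUSP9* (0.942) and *B3GNT1* (0.940), and *PPP1R15B* with *BCL10* (0.923), *SGPP1* (0.918) and *UBE2B* (0.914). Among the members themselves, r was highest between *EIF2AK3* and *PPP1R15A* (0.875), and *EIF2AK4* was negative with all 5 others, from −0.723 with *PPP1R15B* to −0.895 with *PPP1R15A*.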

How the data were processed

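Transcripts of HepG2 cells were measured by QuantSeq 3′ mRNA-Seq (FWD) in 24 libraries, 4 per condition, with single-end reads. Per the submitters' processing notes and the study's methods, the authors trimmed reads with cutadapt 2.8, ran the nf-core RNA-Seq pipeline with STAR alignment to hg19 and counted reads on Ensembl GRCh37 protein-coding, lincRNA and antisense genes. The deposited values are unnormalized counts for 18915 genes; the strand setting of the counting and any molecular identifiers are not stated, and the counts may include PCR copies. Total counts of 5154533 to 6943164 per library limit the precision of low genes.

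Low genes were removed (filterByExpr with a count minimum of 5 and a total minimum of 25), and the rest were scaled with TMM and tested with edgeR 4.0.16 (limma 3.58.1; R 4.3.3) by the quasi-likelihood test, with all 24 libraries in 1 model and Benjamini-Hochberg adjustment over 12685 genes. SEs were derived from the F statistic. The 10 comparisons were each drug against DMSO, each co-treatment against bortezomib and against its partner drug, the co-treatments against each other, and both interactions. Scripts were tested on simulated data. Alternatives were RLE and upper-quartile factors, library totals alone, removal of mitochondrially encoded genes, DESeq2 1.42.0, no filter or the default filter, a fit on the compared groups alone, a replicate block and each library left out. Library totals alone for the pathway lists for the remaining steps in the order of levels and for the sum of the kinases were added after seeing the data.

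The members and lists were chosen with earlier results of these data known. The 6 members are always named; in each list the genes with the smallest p are named, up to 3 per direction, and for each member the 3 genes with the highest Pearson correlation of log2 CPM (prior count 2). *DDIT3* for the ISRIB interaction and the genes overlapping members were named after their values were seen. A few genes that this rule names are not reported here. Replicates differed by more than sampling noise in every pair (lowest chi-square 2.14 per degree of freedom). Near copies were sought in the last 500 bases of each member (at least 80 bases at 97% identity), and 0 were found. Gene coordinates are from GENCODE on GRCh37.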

Additional observations from a re-analysis of the deposited data

Results flagged for a closer look

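In 6 cases the response of a transcript to a second drug differed with and without bortezomib in a test of that difference (edgeR's quasi-likelihood interaction, 4 libraries in each of the 4 conditions). For *EIF2AK1* with nelfinavir the difference was −0.68 on the log2 scale (adjusted p = 2.59e-05), with a change of 0.22 on DMSO and −0.46 on bortezomib, and that of *AIMP2*, which overlaps its last exon, was −0.52 (adjusted p = 0.00470). For *EIF2AK2* with nelfinavir the difference was 0.43 (adjusted p = 0.0360), with −0.37 on DMSO and 0.06 on bortezomib. That of *GPATCH11*, which overlaps the 3′ end of *EIF2AK2*, was 1.52 (adjusted p = 1.185e-05). For *EIF2AK3* with nelfinavir the difference was 0.92 (adjusted p = 0.00159), with 0.41 and 1.33. For *PPP1R15A* with nelfinavir it was −1.22 (adjusted p = 6.33e-06), with 1.68 and 0.45. With ISRIB the difference was 1.304 for *EIF2AK3* (adjusted p = 0.000149), with −0.28 on DMSO and 1.02 on bortezomib, and −1.19 for *PPP1R15A* (adjusted p = 0.000185), with 0.08 and −1.104. In Dixon's test of a single extreme library, 0 of 36 groups of 4 libraries passed the critical value, where chance passes about 1 in 20.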

How the results depend on the processing

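Over 60 results for single transcripts and 1116 recomputed values under other settings, 1073 kept the side of the threshold with no called value changing sign, 26 lost the call, 15 gained it and 2 reversed. Scaling by library totals alone had the widest effect on comparisons with and without bortezomib: the 6 transcripts called in bortezomib with ISRIB versus ISRIB became 3, *EIF2AK1* in that comparison went from 0.51 to −0.0328 (adjusted p = 0.721), and *EIF2AK1* in bortezomib with nelfinavir versus nelfinavir went from 0.02 to −0.49 (adjusted p = 8.24e-07). The step of *EIF2AK2* from DMSO to bortezomib with ISRIB went from 0.55 to −0.0150, in an alternative chosen after seeing the data. Only the factors were changed between these fits, and the spread of each gene was then estimated again. The counts of called transcripts in the other 9 comparisons stayed within 1.5 times under every setting run, single libraries left out included. The transcripts behind a count could still change. In bortezomib with nelfinavir versus nelfinavir, library totals alone called *EIF2AK1* lower and lost the call of *PPP1R15B* (0.25, adjusted p = 0.178). The labels do not say that a replicate number marks a shared batch. Deviations from the condition mean correlated above 0.1 in 10 of 60 same-number pairs and in 7 of 180 other pairs, and 14 of 24 libraries were closest to one of their own number, a hint of pairing that does not hold for every pair. Replicate numbers follow the order of the numbered sample labels in every condition but ISRIB, where they are shifted by a place. The pairing check and the replicate block used the replicate numbers as given. A replicate block changed 3 of 60 calls and reversed 0, namely *PPP1R15B* in bortezomib versus DMSO (0.38, adjusted p = 0.0199), *EIF2AK3* in nelfinavir versus DMSO (0.41, 0.0351) and *PPP1R15B* between the co-treatments (0.42, 0.0234), all of which became called. Depth limits *PPP1R15A* in DMSO and ISRIB most, with 48 to 74 counts per library.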

Other observations

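A list of 12 other regulatory subunits of PP1 was examined beside the PPP1R15 pair. With bortezomib 3 of 12 were higher and 4 lower (median log2 change 0.03, all genes 0.00174), a share near the 53.4% of all genes called. With library totals alone 1 was higher and 8 lower. *PPP1R18* (phostensin) was 1.42 higher (edgeR adjusted p = 5.65e-07), *PPP1R10* (PNUTS, a nuclear targeting subunit) 0.62 (3.68e-05) and *PPP1R35* 0.43 (0.00889). *PPP1R14B* was at −1.44 (edgeR adjusted p = 1.45e-08), *PPP1R3B*, a glycogen-targeting subunit, at −2.82 (0.00997) and *PPP1R7* at −0.38 (0.0194). The value of *PPP1R3B* had an SE of 0.918 and lay near the detection floor. Its level was 1.21 ± 0.798 CPM in DMSO and 0.151 ± 0.188 CPM with bortezomib (SD, n = 4). With nelfinavir alone *PPP1R12A*, the myosin phosphatase subunit, was at −0.26 (edgeR adjusted p = 0.0224) and *PPP1R18* at −0.71 (0.0240), and 0 of 12 were higher, beside 19.2% of all genes called. On adding nelfinavir to bortezomib, where *PPP1R15A* and *PPP1R15B* were higher, 3 of the 12 were lower and 0 higher, a share near the 28.9% of all genes called. *PPP1R10* was at −1.39 (edgeR adjusted p = 1.41e-10), *PPP1R35* at −0.54 (0.00458) and *PPP1R11* at −0.43 (0.0179). On adding ISRIB, where *PPP1R15A* was lower, 0 of 12 were called by edgeR's test (median −0.02, all genes 0.00651), beside 12.2% of all genes. Under library totals alone 0 were higher and 1 was lower there.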
